A study of Mus musculus with 27 samples.

Results

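Chemokines are small secreted or membrane-bound proteins that guide leukocytes, and chemokine receptors are the cell-surface proteins that read them. The genes described here are those whose mouse symbol is Ccl, Ccr, Cxcl, Cxcr or Xcr followed by a number (with or without a or b), together with Xcl1, Cx3cl1 and Cx3cr1. The rule took 62 genes of the 55487 in the count table, 44 ligands and 18 receptors, with 57 different symbols. Of these 62, 56 lie on chromosomes and 6 on unplaced scaffolds, as further copies of Ccl19, Ccl21a, Ccl21b and Ccl27. Reads of such near-identical copies may have been split or left out in the authors' counting, so the values of Ccl19, Ccl21a, Ccl21b, Ccl27a and Ccl27b are uncertain.

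Ligands of the CC class mostly attract monocytes, macrophages, T cells and eosinophils, and many of those of the CXC class attract neutrophils or lymphocytes. Their receptors are G protein-coupled receptors that signal through inhibitory G proteins to phosphoinositide 3-kinase and Rac, and each can bind several ligands. In the heart, Ccl2 and its receptor Ccr2 are known for drawing monocytes from blood after injury, Cx3cl1 and Cx3cr1 for monocytes and tissue macrophages, and Cxcl12 and Cxcr4 for the forming vasculature and for holding leukocytes in tissue.

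Ventricles of mice were sequenced as total RNA in 27 libraries of 7 groups, to follow gene expression after birth and the effect of more or less MBNL1, a protein that binds RNA and controls its splicing and stability. Controls (Ctl) were taken at postnatal day 1 (P1, n = 4) and day 7 (P7, n = 3), beside P7 ventricles with MBNL1 gain of function (Tg, n = 4). Day 60 (P60) ventricles with MBNL1 loss of function (KO) were taken 7 days (n = 5) and 14 days (n = 4) after knockout, each beside P60 controls with the same time label (n = 4 and n = 3). Strain, the promoter of the transgene, the deleted part of the gene, the way the knockout was induced and any treatment that controls share are not given in the sources used here, nor whether the replicates are different animals. The p-values thus take in only the spread among these libraries, which may be technical.

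Total counts ran from 21929347 to 25675115 per library. Levels are CPM (counts scaled by library size) after TMM scaling over all 27 libraries, in which 3 counts equal 0.0958 to 0.188 CPM, and intervals and limits of this kind cover counting error only. The 8 ventricular cardiomyocyte markers summed to between 23000 and 79100 CPM in all 27 libraries and none of them was at 0. Mbnl1 was at 2930 to 4080 CPM with the Tg label against 96.9 to 105 in the P7 controls. In the libraries labelled KO, total Mbnl1 stood at 102 to 219 CPM against 146 to 153 at 7 days and at 115 to 137 against 151 to 170 at 14 days, so at 7 days the gene total does not separate the groups, and the label is used as a name only. Among the libraries labelled KO at 7 days, numbers 1 and 5 differed from the other 3, as described with the results they touch. The libraries labelled KO at both times also differed from P60 controls in Esr1, with the values of 7 days given there. Loss of MBNL1 and whatever else goes with the label cannot be told apart. Genes were tested with edgeR's quasi-likelihood test, fitted over the whole table, and called at a Benjamini-Hochberg adjusted p under 0.05. Fold changes are on the log2 scale, ± SE. With total count scaling in place of TMM the median of all genes moved by 0.42 and 0.37 in the comparisons of KO with control at 7 and 14 days and by -0.60 between P60 and P7, so rises and falls below are relative to the TMM scale.

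Most chemokine genes were low in the ventricle. A gene was taken as near zero in a group when no library of that group had more than 3 counts. By that measure 18 of the 62 were near zero in all 7 groups, and 8 of these had no count in any library. The 18 are Ccl1, Ccl20, Ccl26, Ccl27b, Cxcl11, Cxcl15, Ccr3, Ccr4, Cxcr1, both copies of Ccl19, both of Ccl21a, all 3 of Ccl21b and both scaffold copies of Ccl27. They include all measured ligands of Ccr7 (Ccl19 and the Ccl21 genes, which steer dendritic cells and T cells to lymph nodes). The counts of these ligands, of Ccl27b and of the Ccl27 copies are uncertain, since shared reads may have been left out. Near zero does not show that these genes were silent. Another 17 genes were above that limit in some group but had a mean under 1 CPM in every group, namely Ccl3, Ccl4, Ccl17, Ccl22, Ccl28, Cxcl2, Cxcl3, Cxcl5, Cxcl13, Cxcl17, Xcl1, Ccr6, Ccr8, Ccr9, Ccr10, Cxcr2 and Cxcr5. The remaining 27, 18 ligands and 9 receptors, reached a mean of 1 CPM in at least 1 group.

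The number near zero was 29 at P1, 28 in P7 controls, 26 in Tg, 28 and 26 in the P60 controls of 7 and 14 days, and 20 and 22 in the libraries labelled KO at 7 and 14 days. The number with a mean of at least 1 CPM was 12, 10, 13, 15, 14, 26 and 22 in the same order. All 62 genes together held 0.0186% to 0.0202% of the counts at P1, 0.0196% to 0.0198% in P7 controls, 0.0241% to 0.0256% in Tg, 0.0229% to 0.0234% and 0.0227% to 0.0271% in the P60 controls, 0.0361% to 0.0646% in the libraries labelled KO at 7 days and 0.0299% to 0.0335% at 14 days. Both KO groups lay above all control groups in this share, and the highest libraries of 7 days were libraries 5 (0.0646%) and 1 (0.0590%). Of the 27 genes named with levels, 15 had their highest group mean in the libraries labelled KO at 7 days and 3 at 14 days. Some of the 27, such as Ccl5 and Cxcr6, reached 1 CPM in KO groups only, so the limit itself placed their highest mean there. The same count was not made over all genes, so it describes the named genes only.

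**Figure D1:**
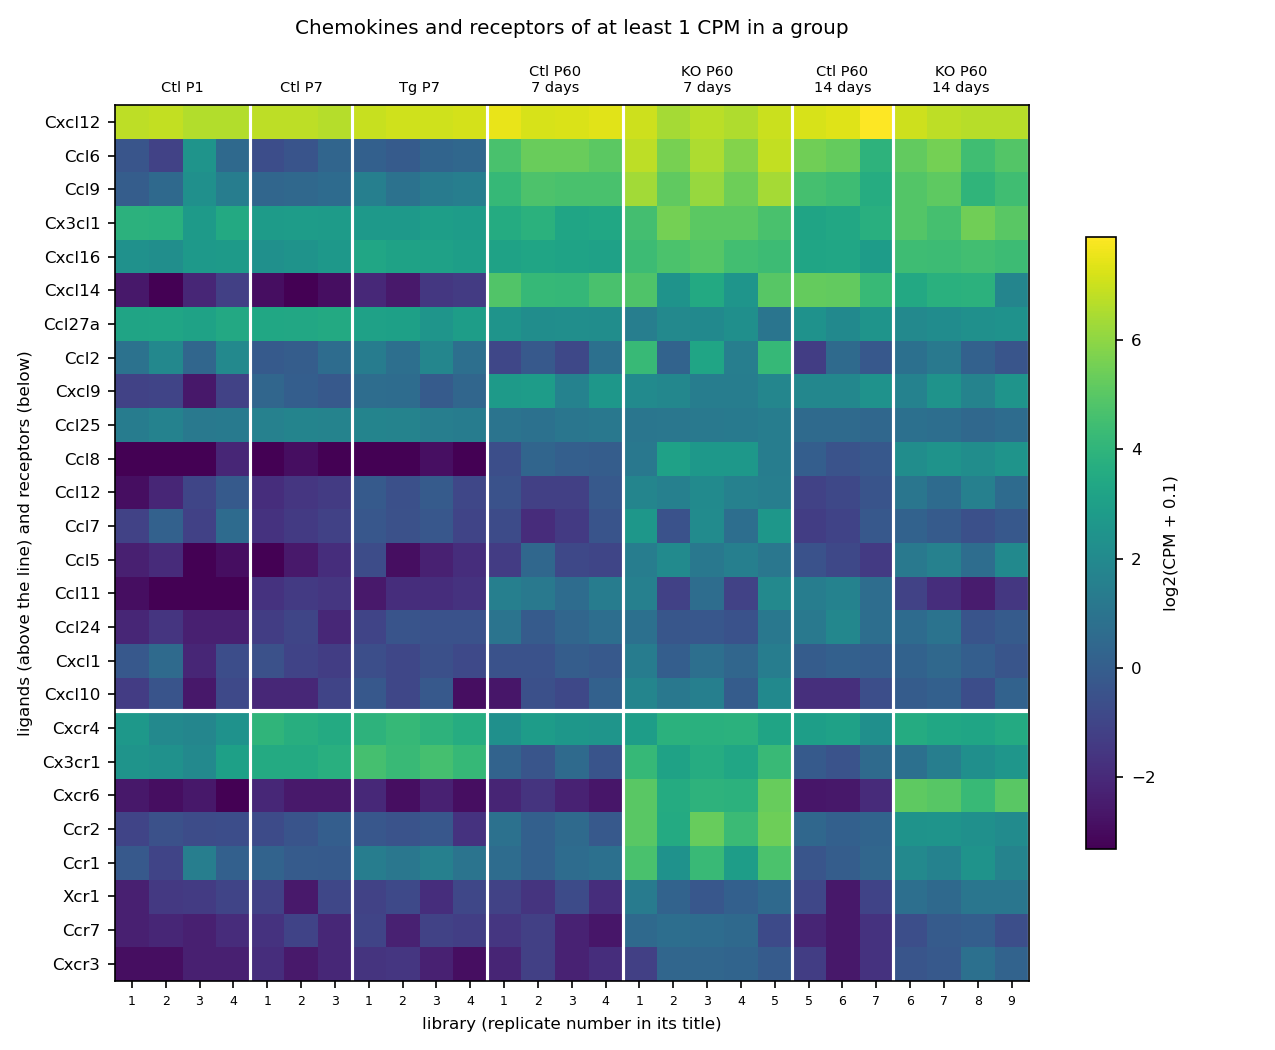
Level of 26 of the 27 chemokine and receptor genes that reached a mean of 1 CPM in some group, as log2(CPM + 0.1), with a column for each of the 27 libraries and ligands above the white line, receptors below. Cxcl12 is high in every library, and Cxcr6 is bright in the 9 libraries labelled KO. The Ccl6, Ccl9 and Cxcl14 rows are darker at P1 and P7 than at P60.

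Per kilobase of exons, Cxcl12, which binds Cxcr4, had the highest group mean of the members in P1 controls (12.8 ± 1.12 CPM per kb, SD, n = 4), P7 controls (12.9 ± 0.451, n = 3), Tg (16.5 ± 0.991, n = 4) and P60 controls (19.8 ± 1.92, n = 4, and 22.4 ± 5.82, n = 3). Ccl6, a ligand of Ccr1 made by myeloid cells, came next in the P60 controls of 7 days with 19.3 ± 3.81 CPM per kb, which differed from Cxcl12 by less than the spread between libraries, and then Cxcl14 with 12.4 ± 2.98. In the controls of 14 days Ccl6 (18.0 ± 8.37) and Cxcl14 (16.9 ± 5.91) were also within the spread of Cxcl12, and Ccl6 was above it in libraries 5 and 6. In the libraries labelled KO at 7 days the order was Ccl6 (46.8 ± 17.4 CPM per kb, n = 5), Ccl9 (20.6 ± 7.26), Cxcl12 (13.2 ± 2.51), Cxcr6 (11.7 ± 6.25) and Ccl8 (10.1 ± 5.27), of which Cxcl12, Cxcr6 and Ccl8 lie within their SD of each other. At 14 days it was Ccl6 (18.7 ± 5.80, n = 4), Cxcr6 (15.3 ± 3.77) and Cxcl12 (13.6 ± 1.56), which do not differ beyond their spread. By group means Cxcr6 was the most abundant receptor per kilobase in both KO groups and Cxcr4 in the 5 others. At 7 days this rests on KO libraries 1 and 5 (16.8 and 19.9 CPM per kb of Cxcr6 against 4.09 and 5.19 of Cxcr4), since the other 3 held 6.06 to 7.87 of Cxcr6 and 7.66 to 7.80 of Cxcr4. Such lengths cover all annotated exons of a gene, so a gene that uses few of them is understated.

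**Figure D2:**
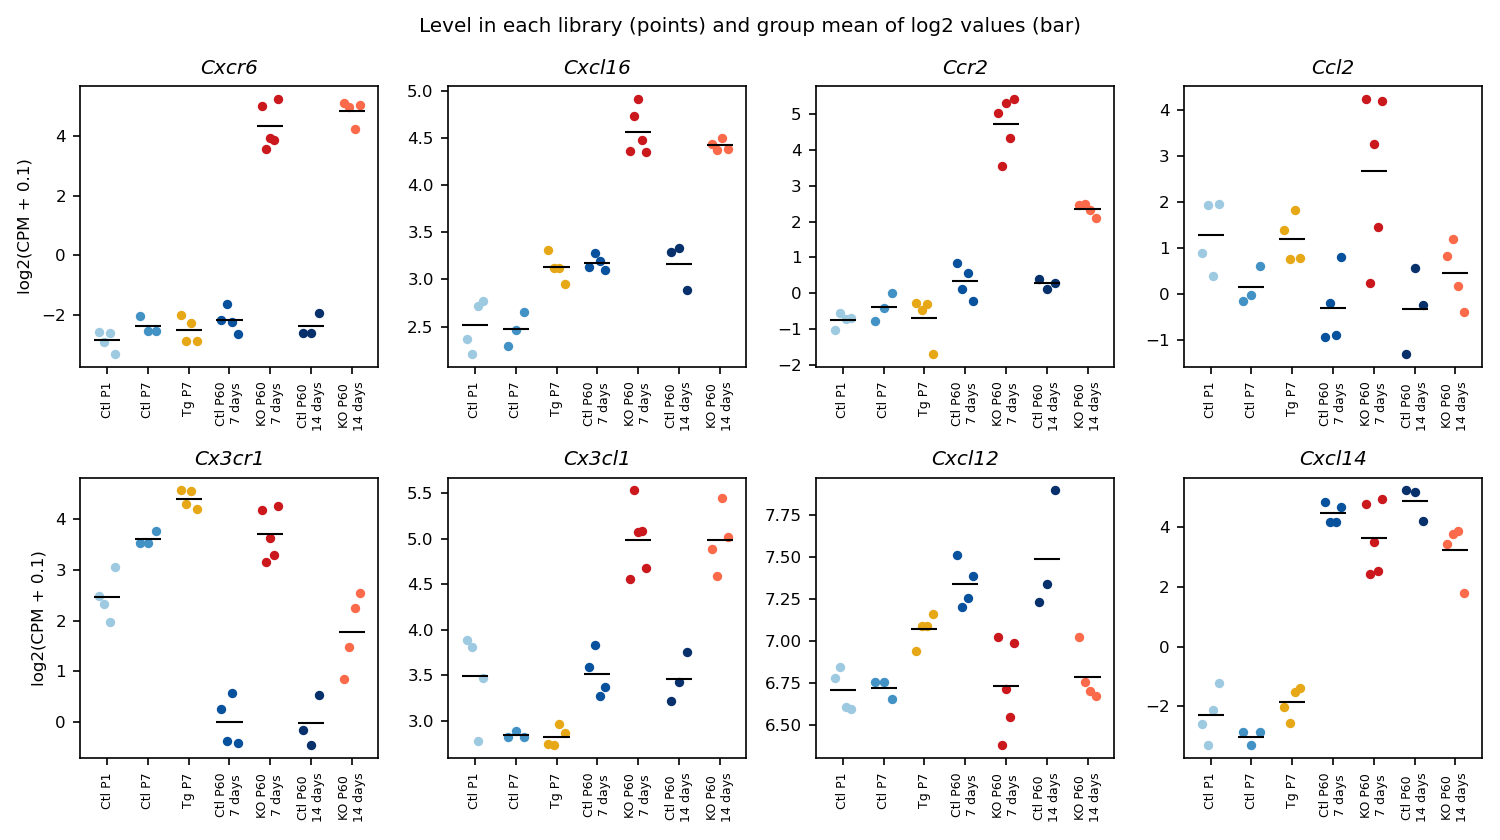
Level of Cxcr6, Cxcl16, Ccr2, Ccl2, Cx3cr1, Cx3cl1, Cxcl12 and Cxcl14 in every library (points) by group, as log2(CPM + 0.1). Each panel has its own vertical axis, and a bar gives the mean of the log2 values. Cxcr6 rises from near the limit of detection to over 11 CPM in both KO groups, and Cx3cr1 is high in Tg and in KO at 7 days and low in P60 controls.

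The libraries labelled KO were compared with the controls of the same time, a comparison set up to ask what loss of MBNL1 does to the adult ventricle. At 7 days most of the chemokine genes that could be tested were higher. All 9 receptors tested rose, led by Cxcr6, Ccr2 and Cx3cr1. So did all 4 genes of the monocyte attractant family (Ccl2, Ccl7, Ccl8 and Ccl12) and all 5 of the inflammatory ligands Ccl3, Ccl4, Ccl5, Ccl6 and Ccl9. Cxcl12 and Cxcl9 fell. Of the 62 genes, 30 had enough counts to be tested, 23 rose and 2 fell, where 26.4% of the 15167 genes tested were called higher and 24.3% lower (50.7% in either direction). For 21 of the 30 the values of the 2 groups did not overlap, as for 45.3% of all genes tested. The median log2 fold change of the 30 was 2.14, against 0.03 over all genes tested. A gene that passed the filter on low counts through its KO libraries alone had to differ. These counts, and those of 14 days below, thus describe the genes tested and not the family. With total count scaling, the calls over all genes were 83.5% higher in place of 52%, and no member fell.

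At 14 days 15 of 27 tested rose and 4 fell, where 21.8% and 22.4% of the 14976 genes tested were called higher and lower (44.2% in either direction), and 17 did not overlap, where 48% of all genes tested did not. The median was 1.25, against 0.01 over all genes, and with total count scaling 81.9% of all calls were higher in place of 49.4% and 2 members fell. Again all 9 receptors tested rose. Of the monocyte attractant family 2 of 4 rose, of Ccl5, Ccl6 and Ccl9 1 of 3, and both eotaxins tested (Ccl11 and Ccl24) fell. Whole ventricle was sequenced, so more cells of a type and more RNA per cell cannot be told apart in any of these changes.

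**Figure D3:**
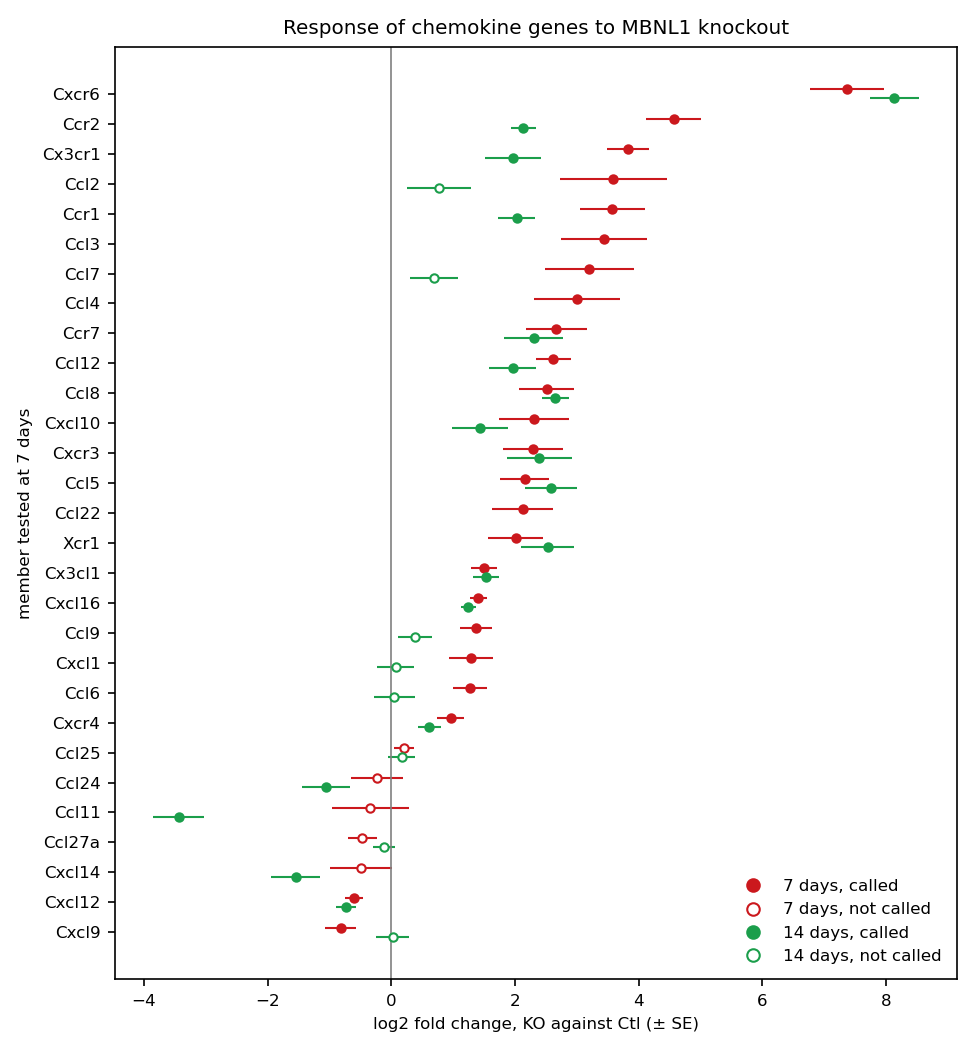
Log2 fold change, KO against control, ± SE for 29 of the 30 members tested at 7 days (red) and, where tested, at 14 days (green), with filled points called at an adjusted p under 0.05 and open points not called. The receptors and Ccl2, Ccl7, Ccl8 and Ccl12 of the monocyte attractant family lie to the right of 0 at 7 days. Cxcr6 stands at 7.37 and 8.14, and Ccl11 and Cxcl14 are called lower at 14 days only.

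Cxcr6, the receptor of the membrane-bound ligand Cxcl16 on T cells, NK cells and related lymphocytes, had the largest change of the members at both times. In the order of their replicate numbers, the 7-day libraries labelled KO had 32.5, 11.7, 15.2, 14.7 and 38.4 CPM of Cxcr6, and their controls had 0.122, 0.223, 0.111 and 0.0592. The 14-day libraries labelled KO had 34.8, 31.8, 18.8 and 32.8 CPM, and their controls had 0.0615, 0.0627 and 0.162. Every library labelled KO lay far above every control at both times, and the 7 controls held only 1 to 4 counts each. On the log2 scale Cxcr6 rose by 7.37 ± 0.59 at 7 days and by 8.14 ± 0.39 at 14 days (Benjamini-Hochberg adjusted p = 9.8e-06 and 5.2e-07 in edgeR). Without KO libraries 1 and 5 of 7 days, the highest there, it was 6.68.

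The gene (chromosome 9, 123806475 to 123811760, plus strand, GRCm38) lies within the span of Fyco1 on the opposite strand and shares no exon with it. Fyco1 itself was lower in the libraries labelled KO, at 133 to 232 CPM against 358 to 526 in the P60 controls. Of 10 T cell markers 4 were tested at 7 days and 3 rose, with the list summing to 6.83 to 9.35 CPM against 2.19 to 3.33, and Themis at 0 in the controls. Of 8 NK cell markers 3 were tested and all 3 rose, with sums of 2.51 to 4.70 CPM against 0.592 to 1.51. At 14 days these sums were 4.98 to 6.43 against 2.27 to 2.46 CPM for T cells and 2.06 to 2.71 against 0.702 to 0.984 for NK cells. The part of these cells in the rise of Cxcr6 was not tested.

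Its ligand Cxcl16 rose less and more evenly. At 7 days Cxcl16 stood at 20.4, 26.5, 30.1, 22.2 and 20.3 CPM in the libraries labelled KO and at 8.64, 9.65, 9.05 and 8.46 in the controls. At 14 days it stood at 21.5, 20.6, 22.6 and 20.7 CPM against 9.66, 9.97 and 7.29. The groups did not overlap at either time, and the changes were 1.41 ± 0.14 (adjusted p = 2.5e-05) and 1.25 ± 0.12 (adjusted p = 3e-05). The exons of Cxcl16 share 18.3% of their length with Zmynd15 on the opposite strand, which stood at 7.40 to 12.6 CPM in KO libraries of 7 days against 3.16 to 4.29, and without a stated strand setting the reads of this overlap cannot be told apart.

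Ccr2, which brings classical monocytes out of bone marrow and into tissue, was second among the receptors at 7 days. At 7 days Ccr2 stood at 32.5, 11.6, 39.1, 19.8 and 42.6 CPM with the KO label and at 1.7, 1.0, 1.39 and 0.769 in the controls. Its values of 14 days were 5.36, 5.5, 4.9 and 4.22 CPM, with controls at 1.23, 1.0 and 1.13. Values did not overlap with controls at either time, and the KO values of 14 days all lay below those of 7 days. The change was 4.57 ± 0.44 at 7 days (adjusted p = 2.4e-05) and 2.14 ± 0.20 at 14 days (adjusted p = 1.8e-05).

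Ccr1, a receptor of inflammatory ligands on monocytes, macrophages and neutrophils, also rose. It stood at 25.2, 5.18, 19.5, 7.47 and 26.3 CPM in the libraries labelled KO at 7 days against 1.46, 1.0, 1.44 and 1.66, and at 3.75, 3.07, 5.27 and 3.09 against 0.677, 0.878 and 1.19 at 14 days. Values of Ccr1 did not overlap between the groups at either time. The changes at 7 and 14 days were 3.58 ± 0.53 and 2.03 ± 0.30.

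Cx3cr1, the fractalkine receptor of patrolling monocytes and many tissue macrophages, stood at 18.0, 8.81, 12.3, 9.74 and 19.2 CPM at 7 days in the libraries labelled KO, against 1.09, 0.669, 1.39 and 0.651 in controls. At 14 days Cx3cr1 stood at 1.69, 2.68, 4.66 and 5.76 CPM against 0.800, 0.627 and 1.35. The groups did not overlap, but the lowest KO library of 14 days lay close to the highest control. The change was 3.82 ± 0.34 at 7 days (adjusted p = 1.5e-05) and 1.97 ± 0.46 at 14 days (adjusted p = 0.0058). Its ligand Cx3cl1, fractalkine, a membrane-anchored chemokine of endothelium, stood at 23.5, 46.1, 33.5, 33.9 and 25.5 CPM against 11.9, 14.1, 9.55 and 10.2 at 7 days. At 14 days the values of Cx3cl1 were 29.5, 23.9, 43.6 and 32.3 CPM against 9.16, 10.6 and 13.4. All KO values lay above all control values, by 1.5 ± 0.20 and 1.54 ± 0.21.

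Receptors of dendritic cells and lymphocytes were near the limit of detection in controls and rose to about 1 CPM. Xcr1, which marks the dendritic cells that present antigen to cytotoxic T cells, stood at 2.43, 1.08, 0.731, 0.969 and 1.31 CPM in the libraries labelled KO of 7 days and at 0.178 to 0.499 in the controls. At 14 days Xcr1 stood at 1.60, 1.34, 2.02 and 2.0 CPM against 0.0627 to 0.431. Of 8 other dendritic cell markers 7 were tested, and 5 rose and 1 fell at 7 days and 5 rose at 14 days, with sums of 308 to 514 CPM against 216 to 338 and of 477 to 516 against 174 to 296. The marker that fell was Clec9a (-0.95 ± 0.18 at 7 days and 0.03 ± 0.20 at 14 days), known from the same cells as Xcr1, and the part of these cells in the rise of Xcr1 was not tested. Ccr7, the receptor that leads dendritic cells to lymph nodes, stood at 1.34, 1.55, 1.46, 1.33 and 0.475 CPM against 0.0592 to 0.335 at 7 days. Library 5 labelled KO was thus well below the other 4 for Ccr7, though still above the controls.

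Cxcr3, the receptor of interferon-induced ligands on T and NK cells, stood at 0.687, 0.779, 1.69 and 1.09 CPM against 0.308, 0.0627 and 0.216 at 14 days. The changes at 7 and 14 days were 2.01 ± 0.45 and 2.53 ± 0.43 for Xcr1, 2.67 ± 0.49 and 2.30 ± 0.48 for Ccr7 and 2.29 ± 0.48 and 2.39 ± 0.53 for Cxcr3. Cxcr4, the Cxcl12 receptor, rose by 0.96 ± 0.22 at 7 days (adjusted p = 0.004) and by 0.62 ± 0.19 at 14 days (adjusted p = 0.023). The call of Cxcr4 at 14 days was lost without KO library 6 (0.59), KO library 9 (0.59) or control library 7 (0.40), and with total count scaling the change was 1.0.

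Of the ligands, those of the monocyte attractant family lie side by side on chromosome 11 of GRCm38, with the eotaxin Ccl11 among them. The order is Ccl2, Ccl7, Ccl11, Ccl12 and Ccl8, between 82035571 and 82116799. At 7 days Ccl2, the main monocyte attractant, stood at 18.9, 1.08, 9.46, 2.67 and 18.3 CPM in the libraries labelled KO, against 0.426, 0.781, 0.444 and 1.66 in controls. Ccl7, a related monocyte attractant, stood at 6.05, 0.618, 4.14, 1.54 and 6.05 CPM against 0.487, 0.167, 0.277 and 0.651. For both genes KO library 2 fell within the controls and libraries 1 and 5 were highest. The changes were 3.59 ± 0.87 (adjusted p = 0.0058) and 3.20 ± 0.72 (adjusted p = 0.0039). At 14 days Ccl2 stood at 1.69, 2.21, 1.03 and 0.668 CPM against 0.308, 1.38 and 0.756 (0.77 ± 0.51, adjusted p = 0.25). Ccl7 was not called either (0.69 ± 0.39, adjusted p = 0.17), except with total count scaling (1.05). Without KO libraries 1 and 5 of 7 days the changes there were 2.41 for Ccl2 and 2.41 for Ccl7.

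The neighbours Ccl12 and Ccl8, also of the monocyte attractant family, differed from Ccl2 and Ccl7 in being called at both times. At 7 days Ccl12 stood at 3.36, 2.86, 4.02, 2.95 and 2.69 CPM against 0.608, 0.335, 0.333 and 0.769, and Ccl8 at 2.18, 8.58, 6.13, 6.18 and 2.61 against 0.547, 1.17, 0.943 and 0.888. At 14 days Ccl12 stood at 2.01, 1.43, 2.88 and 1.42 CPM against 0.369, 0.439 and 0.648, and Ccl8 at 4.44, 5.32, 4.37 and 5.47 against 0.923, 0.627 and 0.756. No value of either gene overlapped between KO and control. Within KO at 7 days, libraries 1 and 5 were the lowest for Ccl8 and the highest for Ccl2. The changes at 7 and 14 days were 2.62 ± 0.28 and 1.96 ± 0.38 for Ccl12 and 2.51 ± 0.45 and 2.66 ± 0.22 for Ccl8.

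The promoters of Ccl12, Ccl8, Cxcl10 and Cxcr6 are shown because these genes rose at both times from different positions in the family: a neighbouring pair, an interferon-induced ligand and the receptor with the largest change. Each run is 5′ to 3′ on the gene's strand and covers 240 bases, from 250 to 11 bases before the RefSeq start on GRCm38.p6, and capitals mark matches to the motifs named after them.
Ccl12 (chr11:82101595-82101834, plus strand): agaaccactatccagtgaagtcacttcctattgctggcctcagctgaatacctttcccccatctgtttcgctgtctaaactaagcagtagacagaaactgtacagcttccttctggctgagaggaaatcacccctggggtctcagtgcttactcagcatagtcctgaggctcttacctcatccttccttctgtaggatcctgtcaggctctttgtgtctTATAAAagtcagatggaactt
Ccl8 (chr11:82114935-82115174, plus strand): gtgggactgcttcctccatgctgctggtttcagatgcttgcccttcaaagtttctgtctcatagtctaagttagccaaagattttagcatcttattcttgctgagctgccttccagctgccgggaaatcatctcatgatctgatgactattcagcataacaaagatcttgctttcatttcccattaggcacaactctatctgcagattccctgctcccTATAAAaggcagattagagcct
Cxcl10 (chr5:92348900-92349139, minus strand): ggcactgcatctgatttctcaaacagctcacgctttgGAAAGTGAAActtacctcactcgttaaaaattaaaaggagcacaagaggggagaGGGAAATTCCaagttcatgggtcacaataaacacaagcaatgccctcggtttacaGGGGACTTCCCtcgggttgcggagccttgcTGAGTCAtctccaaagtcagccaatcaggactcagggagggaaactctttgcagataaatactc
Cxcr6 (chr9:123806227-123806466, plus strand): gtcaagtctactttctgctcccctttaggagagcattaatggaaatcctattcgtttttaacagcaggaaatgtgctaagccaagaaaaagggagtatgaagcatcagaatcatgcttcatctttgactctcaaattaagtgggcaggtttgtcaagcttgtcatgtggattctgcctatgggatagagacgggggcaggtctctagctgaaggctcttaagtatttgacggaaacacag

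The motifs searched, on both strands of the 250 bases before each start, were the NF-kB consensus, an interferon response element (GAAANNGAAA), a TATA box (TATAAA) and an AP-1 site (TGACTCA or TGAGTCA). Ccl12 and Ccl8 each hold a TATA box, 25 and 26 bases before the start, and no other match. Cxcl10 holds NF-kB matches that end 93, 94 and 149 bases before the start, of which the first 2 overlap, shifted by 1 base. It also holds an interferon element 203 bases and an AP-1 site 67 bases before the start. No match was found in the window of Cxcr6. Of the 57 symbols 41 had a window in the RefSeq table. An NF-kB match was in 20.8% of their 48 windows against 7.25% of all 32851 windows, an interferon element in 6.25% against 2.98%, a TATA box in 25.0% against 12.4% and an AP-1 site in 10.4% against 4.46%. A match is a run of letters and not a measured site.

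The inflammatory CC ligands rose at 7 days. Ccl6 and Ccl9, myeloid ligands of Ccr1 and already the most abundant CC ligands of the P60 controls, rose by 1.27 ± 0.28 and 1.37 ± 0.26. Ccl6 stood at 108, 47.7, 90.9, 55.6 and 118 CPM in the libraries labelled KO against 25.4 to 39.9 in controls, and Ccl9 at 81.6, 35.6, 70.8, 42.6 and 82.5 against 18.3 to 27.4, with libraries 1, 3 and 5 highest for both. Ccl5, made by T and NK cells, stood at 2.56, 4.06, 2.15, 2.75 and 2.06 CPM against 0.304, 1.23, 0.444 and 0.414, a change of 2.16 ± 0.39. Ccl3 and Ccl4, ligands from activated macrophages, reached at most 1.38 and 1.03 CPM in any library and had changes of 3.43 ± 0.70 and 3.0 ± 0.70 from control values of 0 to 2 and 0 to 4 counts.

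At 14 days Ccl5 was called, at 2.24, 2.94, 1.52 and 3.88 CPM against 0.615, 0.439 and 0.270 (2.58 ± 0.42, adjusted p = 0.00067). Ccl6 (0.05 ± 0.33, adjusted p = 0.92) and Ccl9 (0.39 ± 0.27, adjusted p = 0.28) were not called, except Ccl9 with total count scaling (0.77) and in the fits of the libraries with shared replicate numbers, with a block (0.95) and without it (0.92). Cxcl10, an interferon-induced ligand of Cxcr3, stood at 3.36, 2.16, 2.76, 0.848 and 3.88 CPM at 7 days against 0.0608, 0.558, 0.444 and 1.01, so that KO library 4 fell within the controls. Its changes were 2.31 ± 0.57 (adjusted p = 0.0062) and 1.43 ± 0.45 at 14 days (adjusted p = 0.025). The call of Cxcl10 at 14 days was lost without KO library 7 or 9 (1.36 and 1.33) or control library 5 or 6 (1.18 and 1.19), and the change was 2.16 without control library 7. Art3, on the other strand, shares 5.90% of the exonic length of Cxcl10 and was lower in the libraries labelled KO of 7 days, at 88.5 to 218 CPM against 320 to 456.

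Cxcl1, a neutrophil attractant, rose at 7 days by 1.29 ± 0.35 (adjusted p = 0.011), or 0.80 without libraries 1 and 5 labelled KO, and was not called at 14 days (0.07 ± 0.30). Ccl22, a ligand of Ccr4 from dendritic cells and macrophages, rose by 2.12 ± 0.50 at 7 days, at 0.525 to 1.22 CPM against 0.0592 to 0.335, and was too low to be tested at 14 days, where the libraries labelled KO held 8 to 19 counts and the 3 controls held 1 count in all. Of the other ligands tested at 7 days, Ccl11, Ccl24, Ccl25, Ccl27a and Cxcl14 were not called, with changes between -0.49 and 0.20, though Ccl25 was called higher with total count scaling (0.63) and Ccl27a lower with all 27 libraries in a single fit (-0.46).

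A few ligands were lower. Cxcl12 stood at 130, 83.3, 105, 93.5 and 127 CPM at 7 days in the libraries labelled KO against 182, 147, 153 and 167, and at 130, 108, 104 and 102 against 150, 162 and 238 at 14 days. All KO values lay below all control values. The changes were -0.60 ± 0.14 (adjusted p = 0.0054) and -0.73 ± 0.16 (adjusted p = 0.0037), but neither was called with total count scaling (-0.17 and -0.38). Cxcl9, another interferon-induced ligand of Cxcr3, changed by -0.82 ± 0.25 at 7 days (adjusted p = 0.018), a call lost with total count scaling (-0.39) and without control library 1 (-0.72) or 2 (-0.68). At 14 days its change was 0.03 ± 0.27 (adjusted p = 0.95).

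Ccl11, Cxcl14 and Ccl24 were called lower at 14 days but, with all libraries and no block, not at 7 days. Ccl11, the eosinophil attractant eotaxin, stood at 0.366, 0.173, 0.0824 and 0.251 CPM in the libraries labelled KO at 14 days, against 2.64, 3.01 and 1.51 in controls. Cxcl14, a chemokine of epithelium and connective tissue, stood at 10.9, 13.7, 14.5 and 3.38 CPM against 38.0, 36.3 and 18.5. Neither gene overlapped between the groups, and the changes were -3.44 ± 0.41 (adjusted p = 9.5e-05) and -1.55 ± 0.40 (adjusted p = 0.01). Ccl24, a second eotaxin, changed by -1.05 ± 0.39 (adjusted p = 0.049), a call lost with total count scaling (-0.67) and without any of KO libraries 6, 8 and 9 or control libraries 5 and 6 (-1.13 to -0.69).

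At 7 days Ccl11 split the libraries labelled KO: libraries 1, 3 and 5 held 2.90, 1.5 and 3.80 CPM and libraries 2 and 4 held 0.348 and 0.364, against 2.80, 2.23, 1.44 and 2.49 in controls. Cxcl14 stood at 27.5 and 31.2 CPM in libraries 1 and 5 and at 5.33, 11.3 and 5.70 in libraries 2, 3 and 4. Its controls stood at 28.8, 18.2, 17.9 and 25.6 CPM. Library 3 thus lay within the controls for Ccl11 and below all of them for Cxcl14. Without libraries 1 and 5, Ccl11 (-1.59), Cxcl14 (-1.60) and Ccl24 (-0.997) were called lower at 7 days too, and Cxcl14 also with a replicate block (-1.13).

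The libraries labelled KO at 7 days differed among themselves in many members. Of the 26 members with a mean of at least 1 CPM there, libraries 1 and 5 held the highest 2 values for 14, among them Ccl2, Ccl7, Ccr1, Cxcr6, Cx3cr1 and Cxcl12, and the lowest 2 for 5 (Ccl8, Ccl27a, Cx3cl1, Cxcl16 and Cxcr4). The remaining 7 were mixed. The same order was not counted over all genes, so it may not be particular to the members. Ccl24 reached a mean of 1 CPM through libraries 1 and 5, with under 1 CPM in each of the other 3. These libraries also had the lowest sums of ventricular cardiomyocyte markers (30600 and 23000 CPM against 46000 to 47400) and of fibroblast markers (4450 and 4680 against 8210 to 9860), and the lowest Esr1 (234 and 195 CPM against 650 to 1890), a gene at 0.487 to 1.5 CPM in P60 controls. Macrophage marker sums were 1760 and 1950 CPM in them and 1400, 1910 and 1440 in the other 3. The part of these differences in the chemokine values was not tested. Esr1 thus also separated the libraries labelled KO at 7 days from P60 controls, and it was high in those of 14 days too. What goes with the level of Esr1 cannot be told apart from loss of MBNL1 in the comparisons of KO with control at either time. Without libraries 1 and 5, 21 members rose and 5 fell. The shares of all genes called in that fit are not given here, so these counts describe the members only.

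**Figure D4:**
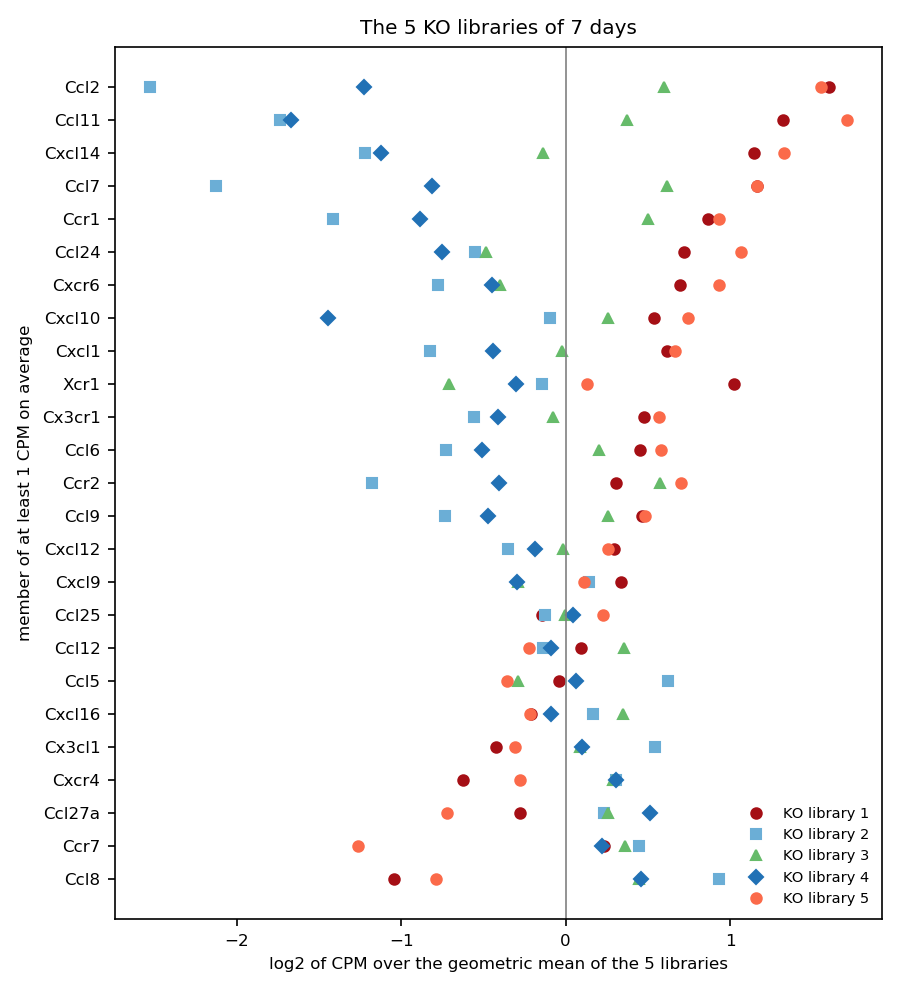
Log2 of the CPM in each of the 5 libraries labelled KO at 7 days over their geometric mean, for 25 of the 26 members with a mean of at least 1 CPM. Libraries 1 and 5 (dark and light red circles) lie to the right for Ccl2, Ccl11, Cxcl14, Ccl7 and Ccr1 and to the left for Ccl8, Ccl27a and Cxcr4, with library 2 (squares) mostly opposite.

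Whether the response differed between 7 and 14 days was tested in the 16 libraries of P60, with 34 members tested. By edgeR 0 of the 34 were called, and 0 of the 15951 genes (0%) over the whole table. At an unadjusted p under 0.05 there were 12 members, 11 of them with a lower response at 14 days, where 10.4% of all genes passed and 5.61% passed with a lower response. The median of the 34 was -0.72, against 0.01 over all genes. The smallest adjusted p was that of Ccr2, with a difference of -2.41 ± 0.57 (adjusted p = 0.16, edgeR quasi-likelihood). DESeq2 (-2.42, adjusted p = 0.0035), the fit of all 27 libraries (-2.43, adjusted p = 0.042) and the fit without KO library 2 of 7 days (-2.61, adjusted p = 0.041) called Ccr2 and no other member. Differences of Ccl11 (-3.08 ± 0.93), Ccl2 (-2.80 ± 1.21), Ccl7 (-2.49 ± 0.98) and Cx3cr1 (-1.83 ± 0.61) did not pass, and those of Cxcr6 (0.79 ± 1.37), Ccl8 (0.17 ± 0.58), Cxcl16 (-0.14 ± 0.19) and Cx3cl1 (0.06 ± 0.31) were within their SE.

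Genes around the chemokine system are given as counts over each list, beside 26.4% of all genes called higher and 24.3% lower at 7 days and 21.8% and 22.4% at 14 days. Of 24 genes of chemokine receptor signalling 17 rose and 1 fell at 7 days and 16 rose and 2 fell at 14 days (medians 0.95 and 0.65), with Gnai2, an inhibitory G protein subunit, at 0.59 ± 0.094 and 0.49 ± 0.080. Of the 20 cytokines and receptors that can induce chemokines, 13 of 14 tested rose at 7 days and 9 of 12 at 14 days, none fell, and the medians were 0.88 and 0.60. Tnfrsf1a, a receptor of tumour necrosis factor, rose by 1.26 ± 0.23 and 0.72 ± 0.082. NF-kB and interferon regulators rose in 8 and fell in 2 of 14 at 7 days and rose in 4 and fell in 0 at 14 days, a share of rises near that of all genes at 14 days (21.8%). Interferon-stimulated genes rose in 3 and fell in 3 of 16 at 7 days, and rose in 2 and fell in 1 at 14 days (medians -0.02 and 0.25), below the shares of all genes called at either time.

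Of the atypical receptors, which bind chemokines without G protein signalling, 2 of 4 tested fell at 7 days, and 2 rose and 2 fell at 14 days. Ackr3, which removes Cxcl12, changed by -1.17 ± 0.12 at 7 days and -1.02 ± 0.13 at 14 days, and Ccrl2 by -1.56 ± 0.27 and -1.58 ± 0.37. Of the proteases that cut chemokines, 4 of 8 rose at 7 days and 3 of 7 tested at 14 days, and Adam10, which sheds Cx3cl1 and Cxcl16 from the membrane, rose by 0.84 ± 0.089 and 0.60 ± 0.080. Of the platelet chemokines Pf4 and Ppbp, Pf4 rose at 7 days (1.0 ± 0.31) and neither was called at 14 days.

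Several lists of cell markers moved with the chemokine genes. Of 16 macrophage markers 15 rose at 7 days and 14 at 14 days, with sums of 1400 to 1950 CPM against 549 to 641 and of 877 to 1270 against 447 to 695. Of 9 monocyte markers all 9 rose at 7 days and 7 of 8 tested at 14 days, with sums of 1040 to 1700 CPM against 279 to 337 and of 877 to 921 against 282 to 386, although Fn1, which leads this sum, is also made by fibroblasts. Of 10 neutrophil markers 2 of 5 tested rose at 7 days and 2 of 3 at 14 days, with sums of 8.0 to 21.4 CPM against 3.10 to 10.8 and of 5.55 to 7.92 against 2.58 to 3.76, and Elane was at 0 in both control groups, Ly6g also in that of 14 days. Of 6 markers of resident macrophages 1 rose and 1 fell at 7 days and 1 fell at 14 days, of 7 B cell markers 2 of 3 tested rose at 7 days and none of 3 was called at 14 days, and of 8 markers of mast cells and eosinophils 1 of 4 tested rose at 7 days and none of 5 was called at 14 days. Of 8 markers of activated fibroblasts 6 rose at each time, with sums of 2170 to 4080 CPM against 301 to 350 and of 1640 to 2520 against 286 to 476. Of 8 ventricular cardiomyocyte markers 6 fell at each time and 1 rose at 14 days. Of 8 markers of vascular endothelium 5 fell at 7 days, with sums of 662 to 908 CPM against 962 to 1100, and 3 fell and 1 rose at 14 days. The part of these cell types in the changes of the chemokine genes was not tested.

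Gain of MBNL1 was examined at P7. The largest change was 1.47 on the log2 scale: the receptors Ccr1 and Cx3cr1 and the ligands Ccl12, Ccl2, Ccl7, Ccl9, Cxcl16 and Cxcl12 rose, and Ccl27a fell. In all 9 of 22 tested rose and 1 fell, where 14.9% of the 15893 genes tested were called higher and 15.8% lower (30.7% in either direction), and 10 of the 22 did not overlap, where 37.4% of all genes tested did not. The median was 0.39 against 0.00 over all genes. With all 27 libraries in a single fit only Cxcl16 was called.

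Ccr1 stood at 2.57, 2.06, 2.82 and 1.87 CPM in the libraries labelled Tg against 1.09, 0.825 and 0.807 in controls (1.36 ± 0.21, adjusted p = 0.00031). Cx3cr1 stood at 23.7, 19.5, 23.6 and 18.3 CPM against 11.4, 11.4 and 13.5 (0.82 ± 0.10, adjusted p = 8e-05). For both receptors each Tg library was above each control. Ccr2 was not among them, at 0.725, 0.629, 0.715 and 0.212 CPM against 0.491, 0.653 and 0.912 (-0.26 ± 0.37, adjusted p = 0.63), and Cxcr6, with 1 to 4 counts per library, was not tested.

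Among ligands, Ccl2 stood at 2.54, 1.61, 3.47 and 1.63 CPM in Tg against 0.806, 0.894 and 1.44 (1.14 ± 0.30, adjusted p = 0.011), a call lost without control library 1 (0.98) or 2 (1.04). Ccl9 stood at 2.76, 1.78, 2.43 and 2.65 CPM against 1.19, 1.27 and 1.40 (0.90 ± 0.19), and Cxcl16 at 9.86, 8.63, 8.58 and 7.63 against 4.80, 5.40 and 6.21 (0.67 ± 0.12). Cxcl12 stood at 123, 136, 136 and 143 CPM against 108, 108 and 101 (0.35 ± 0.059, adjusted p = 0.00061). For these 4 ligands the groups did not overlap, and the rise of Cxcl12 is the smallest called.

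Ccl12 and Ccl7 stayed under 1 CPM and rose by 1.47 ± 0.36 and 1.11 ± 0.34. The call of Ccl7 was lost with DESeq2 (1.12) and without Tg library 1 or 3 or control library 1 or 2 (0.94 to 1.10). Ccl27a, a skin chemokine with near-identical copies, stood at 8.49, 8.17, 5.72 and 7.39 CPM against 10.3, 10.6 and 11.2 (-0.52 ± 0.12). Of the macrophage markers 11 of 16 rose, with sums of 194 to 252 CPM against 123 to 153, and of 9 monocyte markers 2 rose and 1 fell of 6 tested, with sums of 767 to 820 against 822 to 871. The part of these cells in the changes was not tested.

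The controls were compared between ages. From P1 to P7, 4 of 25 members tested rose and 3 fell, where 12.3% and 11.2% of the 16388 genes tested were called (23.5% in either direction), and the median was -0.43 against -0.01 over all genes. From P7 to P60, 12 rose and 4 fell, where 33.3% and 36% of the same genes were called (69.3% in either direction), and the median was 0.76 against -0.05. The groups did not overlap for 7 and 16 of the 25, and for 32.7% and 63.3% of all genes tested. The shares of members called in either direction and of members not overlapping are near those of all genes, so the ages are described by single genes. By direction, on the TMM scale, a larger share of members rose and a smaller share fell from P7 to P60 than of all genes. A gene that passed the filter on low counts through its P60 libraries alone could only be called higher. This holds for Cxcl14 and Ccl8, with 2 counts and 1 count at P7, so the shares describe the genes tested and not the family. With total count scaling the share of higher among all calls moved from 52.4% to 41% in the first comparison and from 48.1% to 18% in the second, where 7 members then rose.

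In the first week Cxcr4 stood at 6.13, 3.74, 3.45 and 5.15 CPM at P1 and at 16.2, 12.9 and 11.5 at P7, a change of 1.55 ± 0.22 (adjusted p = 0.00015). Cx3cr1 stood at 5.50, 4.95, 3.83 and 8.22 CPM and then at 11.4, 11.4 and 13.5 (1.10 ± 0.25, adjusted p = 0.0051). Both receptors were higher in each P7 library than in each P1 library. Cx3cl1 stood at 14.7, 13.9, 6.77 and 11 CPM at P1 and at 6.94, 7.32 and 6.98 at P7. Library 3 of P1 was thus below all of P7, and the fall of -0.71 ± 0.22 (adjusted p = 0.03) was not called without P1 library 1 (-0.58) or 2 (-0.61) or without any of the 3 P7 libraries (-0.73 to -0.69).

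The others called were under 1 CPM on average in the groups compared, or nearly so. Cxcl9 rose by 1.70 ± 0.43, which was not called without P7 library 1 (1.52). Ccl28, a mucosal ligand, fell by 2.56 on the log2 scale. Cxcr2, the main chemokine receptor of neutrophils, changed by -3.28 ± 0.91, not called without P7 library 1 or 3 (-2.74 each), and by -6.53 without P7 library 2, which holds all 4 counts of its group. Of 10 neutrophil markers 7 of 8 tested fell, with sums of 8.5 to 19.5 CPM at P1 and 2.28 to 2.91 at P7, where Ly6g was at 0, and their part in the fall of Cxcr2 was not tested. Ccl11 had 1 count over the P1 libraries and 21 at P7, a ratio of 29.9 after scaling, with an exact 95% interval from counting alone of 4.82 to 1240. Library 3 of P1 stood apart, with 5.43 CPM of Ccl6 against 0.358 to 1.32 in the other 3 and the highest neutrophil sum, and without it 5 members were called lower, among them Ccl2 (-1.56), Ccl7 (-1.72) and Cxcl1 (-1.03).

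Between P7 and P60 the largest changes were in ligands. Cxcl14 held 2 counts over the 3 P7 controls and 3095 over the 7 P60 controls, a ratio of 1110 with an exact 95% interval from counting alone of 307 to 9170, and stood at 17.9 to 38.0 CPM at P60. Ccl8 held 1 and 101 counts, a ratio of 72.5 (12.7 to 2890). Ccl6 stood at 0.526, 0.653 and 1.16 CPM at P7 and at 15.3 to 43.7 in the P60 controls (5.41 ± 0.70), and Ccl9 at 1.19, 1.27 and 1.40 and at 12.1 to 27.4 (4.05 ± 0.45). These ligands thus passed from at or near the limit of detection, or about 1 CPM, to well above it with no overlap.

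The eotaxins followed. Ccl11 stood at 0.210, 0.275 and 0.246 CPM at P7 and at 1.44 to 3.01 at P60 (3.21 ± 0.34), and Ccl24 at 0.315, 0.413 and 0.140 and at 0.836 to 3.57 (2.63 ± 0.39). Cxcl9 stood at 1.19, 0.928 and 0.772 CPM and at 3.05 to 7.19 (2.33 ± 0.33), and of 16 interferon-stimulated genes all 16 rose in this comparison (median 2.28). Cxcl16 (0.71 ± 0.15), Cxcl12 (0.70 ± 0.12), Cx3cl1 (0.66 ± 0.20) and Ccr2 (0.76 ± 0.27) rose by less, and none of these 4 was called with total count scaling (0.06 to 0.16). The rise of Ccr2 was not called without P7 library 1 (0.57) or 2 (0.72) either. Ccl28 changed by 1.25 ± 0.52 (adjusted p = 0.045), a call lost when any of 8 libraries was left out (1.03 to 1.53).

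**Figure D5:**
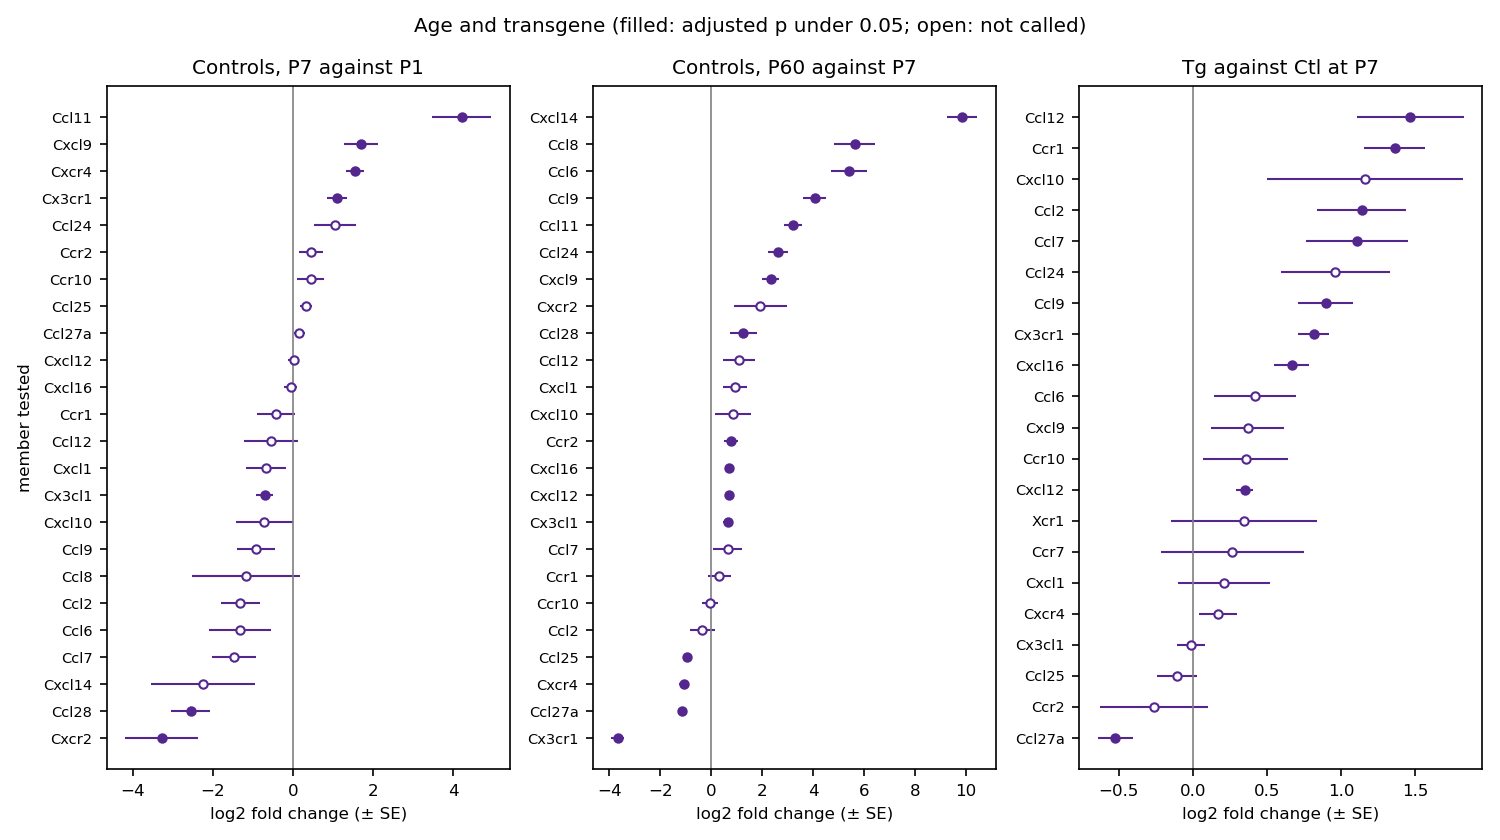
Log2 fold change ± SE of members tested between P7 and P1 controls, between P60 and P7 controls and between Tg and control at P7, with filled points called at an adjusted p under 0.05. Cx3cr1 is called higher from P1 to P7, lower from P7 to P60 and higher in Tg, and the Cxcl14 and Ccl8 points rest on 2 counts and 1 count at P7.

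Cx3cr1 went the other way. It stood at 11.4, 11.4 and 13.5 CPM at P7 and at 0.627 to 1.39 in the 7 P60 controls, a change of -3.67 ± 0.25 (adjusted p = 8.9e-09), while 13 of 16 macrophage markers rose and 0 fell, with sums of 123 to 153 CPM at P7 and 447 to 695 at P60. Cxcr4 stood at 16.2, 12.9 and 11.5 CPM and at 4.75 to 8.47 (-1.07 ± 0.19), Ccl27a at 10.3, 10.6 and 11.2 and at 3.89 to 5.54 (-1.17 ± 0.12), and Ccl25, a ligand known from thymus and gut, at 2.94, 3.27 and 3.16 and at 1.24 to 2.13 (-0.97 ± 0.14). None of these 4 overlapped between the ages. Cx3cr1 was thus at its lowest in P60 controls, and the libraries labelled KO of 7 days, at 8.81 to 19.2 CPM, spanned the P7 control values.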

How the data were processed

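The authors deposited raw counts per gene for all 27 libraries, in 1 table with Ensembl identifiers. Per the submitters' processing notes the tools were STAR, featureCounts, DESeq2 and Salmon and the builds GRCm38 and mm10; their roles and versions, any filter, the strand setting and the release of the gene annotation are not given in the sources used here. Symbols, exon lengths and positions came from the GENCODE M21 annotation, which held 55227 of the 55487 genes, and promoter sequences from RefSeq on GRCm38.p6.

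The deposited counts were tested with edgeR 4.0.16 in R 4.3.3 (filterByExpr, TMM, quasi-likelihood), with Benjamini-Hochberg adjustment over all genes tested, in the groups of each comparison only (the P60 controls of both times together against P7; all 16 P60 libraries for the difference in response). SE was derived from the fold change and the test's F value. The script was tested on simulated counts with 200 changed genes. Over the 40 pairs of replicates the chi-square per degree of freedom was 6.34 to 147 over genes with at least 20 summed counts, so no pair of libraries agreed within sampling noise. Per kilobase values divide CPM by the length of all exons of a gene.

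Members with a mean of at least 1 CPM in a group were named with levels. Members called with at least 1 CPM in a compared group were named with their libraries, up to 14 by size of change, beyond which Cxcl16 at 7 days, Cxcl12, Cxcl14 and Ccl11 at 7 days, Cxcl1, Clec9a and others were chosen after their values were seen. Of the other lists up to 3 genes were named, by mean level. The counts and medians over members include 1 receptor that is not reported here by name, in text or figures. The members and lists were chosen with earlier results of these data known.

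Alternatives were the size factors of DESeq2 in edgeR, total count scaling, no filter on low counts, DESeq2 1.42.0, all 27 libraries in a single fit, leaving out each library, leaving out KO libraries 1 and 5 of 7 days, a replicate block and other limits for near zero.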

Additional observations from a re-analysis of the deposited data

Results flagged for a closer look

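Of 88 groups of 4 or 5 libraries checked for a library far from the others, 2 had one, where chance gives about 1 in 20. Ccl27a stood at 5.54 CPM in library 1 of the P60 controls of 7 days, above the other 3 at 4.38 to 4.50 CPM. Ccr7, the receptor that leads dendritic cells to lymph nodes, stood at 0.475 CPM in library 5 labelled KO at 7 days, below the other 4 at 1.33 to 1.55 CPM.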

How the results depend on the processing

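Of 1174 values for single members under the alternatives, 1102 kept direction and call, 72 lost the call and 0 reversed. A called member that an alternative fit did not test is not among these values. Many of them come from fits that leave out a single library and so share most of their data with the main fit. With total count scaling 0 members fell at 7 days, 2 fell at 14 days and 7 rose from P7 to P60. Without KO libraries 1 and 5 of 7 days 5 members fell. The response was called lower at 14 days for 1 member with DESeq2 and for 1 with all 27 libraries in a single fit, a fit in which the transgene raised 1 member and lowered 0. Without the filter on low counts 5 members fell from P1 to P7. Shares of all genes called are not given for the alternative fits, so their counts describe the members only. The cause of these shifts was not tested. Leaving out each library in turn gave 20 to 24 members higher and 1 to 2 lower at 7 days, 13 to 16 and 3 to 4 at 14 days, 0 and 0 to 1 for the difference in response, 7 to 10 and 1 with the transgene, 3 to 4 and 1 to 5 from P1 to P7, and 11 to 13 and 4 from P7 to P60. Same-numbered libraries did not deviate together (r from -0.207 to 0.0818), so the numbers were not taken as pairs. With a replicate block 20 members rose and 3 fell at 7 days, 15 and 3 at 14 days, 0 and 0 for the difference in response, 10 and 1 with the transgene, 4 and 1 from P1 to P7 and 11 and 4 from P7 to P60. The block uses only libraries with shared numbers, and with these alone and no block, an alternative chosen after seeing the data, 1 member fell from P1 to P7 too. Under a limit of 1 or 10 counts in place of 3, 14 or 23 members were near zero throughout. Depth limits what can be said of these: 3 counts equal 0.0958 to 0.188 CPM.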

Other observations

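Some members too low to be tested in the main analysis were called by others. At 14 days Ccl17, a ligand of Ccr4 from dendritic cells, and Ccl22 were called higher in the libraries labelled KO with DESeq2 (adjusted p = 0.003 and 0.0014) and without the filter on low counts. At 7 days Cxcl5, a neutrophil attractant, was called higher with DESeq2 (2.32 on the log2 scale, adjusted p = 0.0033), as was Cxcr2 (2.21, adjusted p = 0.0097). From P7 to P60 Ccl5 was called higher with DESeq2 (2.66, adjusted p = 0.0035). All of these genes except Ccl5 had means under 1 CPM in every group.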
